A study of Mus musculus with 6 samples.

Results

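Homeostatic microglia high in P2ry12 and Tmem119 were picked out of sorted CD45+ midbrain cells by fixed limits on UMI counts. A cell entered if it had 1000 to 15000 UMIs, 250 to 5000 detected genes, at most 10% mitochondrial UMIs and at most 1 UMI over the border macrophage genes Mrc1, Pf4 and Cd163. Of these cells, members had 5 or more UMIs and at least 0.5% of their UMIs in P2ry12, Tmem119, Slc2a5 and Crybb1. Members also stayed under 1% in 7 immediate early genes (Fos, Fosb, Jun, Ier2, Klf2, Egr1, Dusp1), under 0.4% in Il1a, Il1b, Tnf and Nlrp3, and under 0.3% in Spp1, Lpl, Igf1, Olr1, Mmp12 and Itgax. These limits left 5792 of 79825 cell barcodes (7.26%), of which 1648 came from PBS, 1751 from monomer, 1614 from PFF + VH and 779 from PFF + AZD1480. The levels of these 24 genes chose the cells and are given only as a description.

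All mice were male Line 61 mice, in which the neuronal Thy1 promoter drives human α-Syn, so that every group, the controls included, carried the transgene. The paper bred them from Line 61 females and hybrid B6D2F1 males, on a background it calls congenic. At 12 to 15 weeks of age the striatum was injected with PBS, with monomeric human α-Syn, or with preformed fibrils of human α-Syn (PFF). From week 2, PFF mice were given vehicle (VH) or 25 mg/kg of AZD1480, an inhibitor of JAK1 and JAK2, for 4 weeks, and CD45+ cells were sorted at week 6 from 3 to 5 pooled midbrains per sample. Each condition was 1 library of the 10x Genomics 3′ kit, so that condition and library cannot be told apart. Within the PFF libraries, antibody hashtags mark 4 samples with VH and 5 with AZD1480, and these were taken as replicates because their numbers equal the replicates stated for the groups. PBS and monomer have no such marks and entered no test.

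Microglia are the resident macrophages of the brain parenchyma. In the healthy brain they survey their surroundings and hold a characteristic program, kept up by TGF-β signaling and by transcription factors such as Sall1 and Mef2c, in which the ADP receptor P2ry12, the membrane protein Tmem119 and the fractalkine receptor Cx3cr1 stand out. After injury, protein aggregates or interferon, this program gives way in part to phagocytic, lysosomal, antigen presentation or interferon-stimulated genes. Interferons and many cytokines signal through receptors bound to JAK kinases, which phosphorylate STAT factors.

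The PFF + VH library stood apart in depth. It held 34828 barcodes at a median of 2319 UMIs, against 13813 to 15683 barcodes at 6820 to 7230 UMIs in the other libraries. Members of PFF + VH accordingly had a median of 2368.5 UMIs and 1308 genes, against 6117 to 6426.5 UMIs and 2556 to 2674.5 genes elsewhere, and a median mitochondrial share of 0.882% against 0.547% to 0.617%. Any 2 libraries shared 51 to 163 barcodes, at most 1.05% of a library. A single hashtag was called in 1042 members of PFF + VH (64.6%) and 693 of PFF + AZD1480 (89.0%). Members of PFF + VH with a single hashtag had a median of 2549 UMIs and those with none 1800, so the hashtag values rest on the deeper cells of that library. Levels are given as CPM, a gene's count scaled to a common total of UMIs in the summed members of a library or hashtag, with intervals and floors for counting error only.

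P2ry12, the purinergic receptor through which microglia sense released nucleotides, carried 67.5% to 69.6% of the 4 genes' UMIs in members. It stood at 4129, 4108, 4223 and 4008 CPM in PBS, monomer, PFF + VH and PFF + AZD1480. Tmem119, a membrane protein of parenchymal microglia, had 1358, 1395, 1337 and 1418 CPM in the same order. Slc2a5, which encodes the fructose transporter GLUT5, had 345, 399, 361 and 336 CPM and Crybb1, a crystallin gene, 203, 170.0, 147 and 178 CPM. Levels of the 4 genes were thus close between libraries, as the limit on their sum requires. A UMI of P2ry12 was found in all members. All 4 genes were found together in 52.9% of PBS members, 50.7% of monomer members, 18.3% of those with VH and 44.3% of those with AZD1480, an order that follows the depth of the cells.

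The limit cut through a continuous range. The median marker share of members was 0.586%, 0.586%, 0.585% and 0.574% of UMIs, only just above the limit, and the highest share in a member was 2.25%, in PFF + VH. Just inside the limit, at 0.5% to 0.6%, lay 915, 994, 907 and 480 members, and just outside it, at 0.4% to 0.5%, lay 1387, 1511, 1531 and 812 cells. When each cell was thinned to 1000 UMIs and the limits applied again, 68.0% to 73.8% of the members stayed members. The members are therefore the upper end of a range of microglia and not a separate type. For comparison, cells with 0.1% to under 0.5% of UMIs in the 4 genes, at least 2 such UMIs and the same upper limits are called marker-low cells, of which there were 4829 in PBS, 4830 in monomer, 9344 with VH and 3975 with AZD1480. Marker-positive cells over 1 or more of the 3 upper limits numbered 1395, of which 1372 were over the immediate early limit, 149 over the inflammatory limit and 5 over the limit for the genes of disease-associated microglia (DAM).

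The label was held against 30 further signature genes of homeostatic microglia. All 30 were detected in the members of every library, with a summed level of 43187, 43919, 40164 and 43331 CPM in PBS, monomer, PFF + VH and PFF + AZD1480. In the marker-low cells the sum was 35914, 36469, 32025 and 34365 CPM. A gene was higher in members than in marker-low cells in all 4 libraries for 28 of the 30, against 32.6% of all 3582 genes compared. Cd34 was lower in all 4, and Gpr183 was mixed. In 9 hashtags of 9, members were the higher for 22 of the 30, against 8.21% of all genes. These values are a description, because the same cells were chosen by their microglial RNA.

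P2ry13, a sister receptor of P2ry12, differed by log2 0.46 to 0.70 over the libraries and 0.61 to 0.72 over the 9 hashtags. Selplg, the P-selectin ligand, had log2 0.50 to 0.63, and Gpr34, a lysophosphatidylserine receptor, 0.43 to 0.56. Cx3cr1 had log2 0.33 to 0.46. Sall1, the transcription factor that keeps microglial identity, had log2 0.30 to 0.41. Going the other way, 76 of 77 ribosomal protein genes, 13 of 17 DAM genes and 12 of 14 inflammatory genes beside those of the limits were lower in members in all 4 libraries, against 25.3% of all genes. The widest of these gaps was that of Apoe, the lipid carrier that rises in DAM, with 257, 567, 1107 and 587 CPM in members and 1034 (PBS), 1487 (monomer), 3542 (PFF + VH) and 2304 (PFF + AZD1480) CPM in marker-low cells. Ifi27l2a, an interferon-stimulated gene, had 16.7, 14.1, 79.9 and 14.7 CPM against 47.8, 39.3, 179 and 56.0 CPM.

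**Figure D1:**
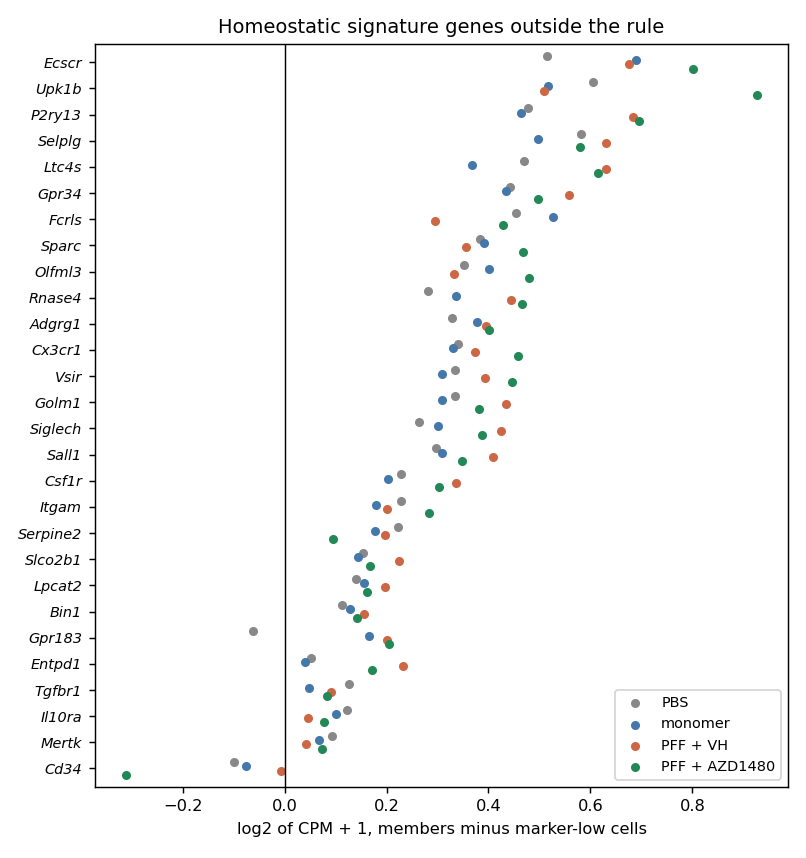
Difference of log2(CPM + 1) between members and marker-low cells for 28 homeostatic signature genes that the limits did not use, with 1 point per library. For 26 of them all points lie above 0, and P2ry13, at 0.46 to 0.70, is among the highest.

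Genes of other cell types were low in members. Neuron markers summed to 4.13 to 9.50 CPM, with Th at 0 in every library. Endothelial and red cell markers summed to 18.0 to 19.4 CPM, and the 4 hemoglobin genes of that list were at 0. Border macrophage and monocyte markers summed to 152 to 179 CPM, of which Stab1, at 76.9 to 115 CPM, was the most abundant. T and NK markers summed to 81.9 to 104 CPM, nearly all of it Il7r. B cell markers reached 206 to 254 CPM, mostly Ighm, and neutrophil markers 398 to 431 CPM, mostly Csf3r. Oligodendrocyte markers summed to 697 to 746 CPM, of which Trf, a transferrin gene that microglia also transcribe, had 607 to 649.7 CPM. Astrocyte markers summed to 134 to 218 CPM, nearly all Slc1a3, with Gja1 at 0. S100a8 and S100a9, which define neutrophils, had 4.94, 1.24, 24.2 and 19.8 CPM and 9.06, 1.42, 34.5 and 28.1 CPM. They were thus higher in both PFF libraries, and the part of such RNA in any result was not tested.

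Of the cells that passed the filters, PBS held 12.2% members (exact binomial 95% interval 11.6 to 12.7) and monomer 12.8% (12.2 to 13.4). PFF + VH held 5.70% (5.43 to 5.97) and PFF + AZD1480 6.44% (6.01 to 6.90). With every cell thinned to 1000 UMIs the shares were 16.9%, 17.5%, 9.02% and 10.3%, in the same order of libraries. Both PFF libraries were thus lower than both control libraries at either depth, with 1 library per condition and no test. The filtered cells include CD45+ cells other than microglia, and the paper reports higher percentages of monocyte/macrophage and T-cell clusters after PFF. A smaller share of members, a lower level of the 4 genes per cell and more cells of other types cannot be told apart here. P2ry12 over all filtered cells stood at 2169, 2211, 1684 and 1700 CPM.

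Among marker-positive cells, 84.8% were members in PBS and 82.2% in monomer, against 75.2% with VH and 80.6% with AZD1480. Cells over the immediate early limit numbered 294 of 1944 in PBS, 375 of 2130 in monomer, 515 of 2146 with VH and 188 of 967 with AZD1480. Cells over the inflammatory limit took 0.926%, 1.60%, 3.26% and 2.79%. Thinned to 1000 UMIs, the immediate early share was 33.5%, 34.3%, 39.0% and 36.8%, higher than at full depth in every library, and again lowest in PBS and highest with VH. The inflammatory share was then 7.43%, 7.36%, 10.8% and 12.4%, so that PFF + AZD1480 lay above PFF + VH and monomer just below PBS, unlike at full depth.

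AZD1480 was compared with VH over hashtags. Members were 7.12%, 4.51%, 4.18% and 8.85% of filtered cells in the 4 hashtags of PFF + VH and 7.77%, 5.60%, 4.26%, 9.09% and 5.44% in the 5 of PFF + AZD1480. The groups overlapped, with means of 6.17% ± 2.22 (SD, n = 4) and 6.43% ± 1.95 (SD, n = 5), and the difference of 0.267 percentage points did not pass the threshold (p = 0.841 by a two-sided exact permutation test, 1 after adjustment). With MULTIseqDemux hashtag calls the means were 4.01% and 6.37%, with ranges that overlapped, and differed by 2.36 points (p = 0.0476 by the same exact test, 0.238 after adjustment). That caller gave a single hashtag to 19.8% of PFF + VH cells and 79.9% of PFF + AZD1480 cells. Its hashtags held 44 to 81 members with VH and 58 to 265 with AZD1480. The next shares again use the main hashtag calls. Of marker-positive cells, members were 80.3% ± 4.71 (SD, n = 4) and 81.1% ± 6.81 (SD, n = 5), a difference of 0.781 points (exact permutation test, adjusted p = 1). The immediate early share differed by -0.419 points (exact permutation test, adjusted p = 1) and the inflammatory share by 0.851 points (exact permutation test, p = 0.175, adjusted p = 0.873). No single-hashtag cell was over the DAM limit. With thinned cells the inflammatory difference was 3.28 points (exact permutation test, adjusted p = 0.238), and 0.606% of marker-positive cells with VH and 0 with AZD1480 were over the DAM limit (exact permutation test, p = 0.0159, adjusted p = 0.0794). The smallest p this design allows is 0.0159, and 5 shares were compared.

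**Figure D2:**
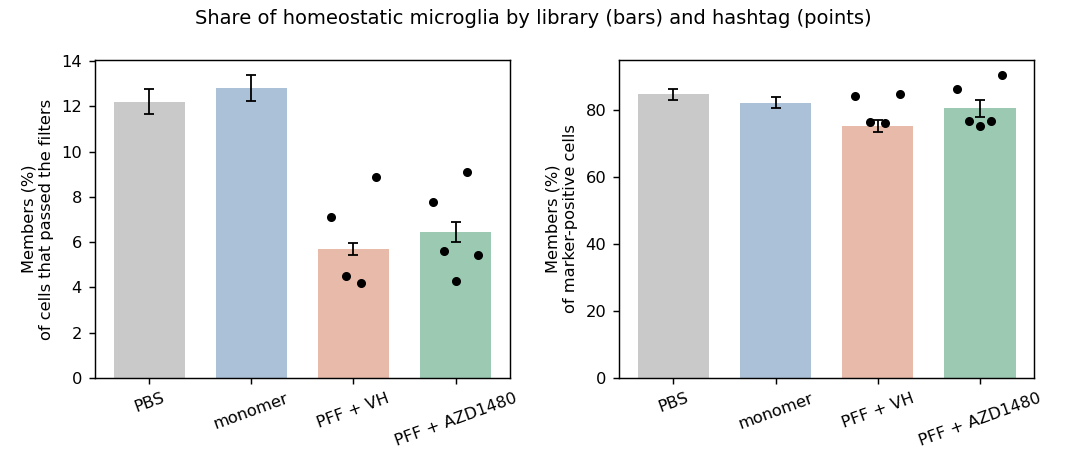
Members as a percent of the cells that passed the filters and of marker-positive cells, with a bar for each of the 4 libraries, its exact binomial 95% interval, and a point for each hashtag. The PFF bars, at 5.70% and 6.44% of filtered cells, lie below those of PBS and monomer at 12.2% and 12.8%, and the points of both PFF groups overlap.

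Members also varied among themselves. Over members thinned to 1000 UMIs, 4.0% of 3148 genes had a variance of at least 1.2 times their mean in all 4 libraries, where a ratio of 1 is what counting alone gives, and the median gene had 0.999 as its lowest ratio. Cst3, the cystatin C gene and the most abundant of the named genes at 55.4 to 62.6 UMIs per thinned cell, led with ratios of 8.78 to 12.7. It was followed by the chemokine genes Ccl4 (3.47 to 4.97), Ccl2 (2.04 to 3.67) and Ccl3 (1.88 to 2.95), and by Apoe, at 3.13 to 4.77. Cd83, an activation marker, had 1.97 to 2.98. Members under the inflammatory limit therefore still differed from each other in chemokines that the limit did not use. Adamts1, a secreted protease gene, had ratios of 1.82 to 2.35, Csmd3 2.33 to 2.73, C1qb 1.76 to 2.02 and Hist1h2bc 1.80 to 2.31. Tmsb4x, Malat1, Gm42418 and mt-Co3 were also among the leading 15 genes, 11 of which were among the leading 15 with members thinned to 2000 UMIs. Gm42418 overlaps an rRNA gene, and reads there are hard to assign.

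Against marker-positive cells over a limit, the wider gaps were toward lower levels in members. Of 3496 genes, 118 were at least 1.5-fold lower in members in all 4 libraries and 12 at least 1.5-fold higher. Without a limit on size, 19.0% of genes were lower and 50.6% higher in all 4. Gadd45b, a stress sensor that responds to NF-κB, had 20.3, 31.4, 55.7 and 45.6 CPM in members and 236, 279.6, 266 and 273 CPM in the compared cells. Nfkbia, the inhibitor induced by NF-κB, had 232, 286.5, 514 and 474 CPM against 1969, 2135, 2377 and 2382 CPM. Both were lower in members in each of the 9 hashtags. Other immediate early or NF-κB target genes with the widest gaps were Csrnp1, Egr3, Tnfaip3, Icam1, Atf3 and Nfkbiz, at log2 -3.12 to -2.06, all lower in 9 of 9 hashtags. Marcksl1 had log2 -3.61 to -2.42, and Dusp2, at -3.33 to -2.19 by library, was lower in 7 of 9 hashtags. By list, 17 of 18 immediate early and stress genes and 13 of 14 inflammatory genes outside the limits were lower in all 4 libraries. These gaps are a description, because most of the compared cells were chosen for being over the immediate early limit.

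The genes higher in members than in those cells showed narrower gaps. E330020D12Rik, a long noncoding RNA gene, had 624, 435, 576 and 438.5 CPM in members against 369.5, 216, 254 and 201 CPM. Gpr183, the oxysterol receptor, had 1073.5, 1208, 995 and 1216 CPM against 692, 593, 549 and 689.95 CPM, and was higher in 9 of 9 hashtags. Tia1, Ubac2, Sesn1, Rnf169 and Pag1 lay at log2 0.61 to 1.00, again in 9 of 9 hashtags. Homeostatic signature genes were higher in 24 of 30 in all 4 libraries and lower in 1, with a median of log2 0.16 to 0.20 by library, beside 0.13 to 0.15 over all genes. In 9 hashtags of 9, members were the higher for 8 of the 30, against 7.78% of all genes, and in 8 or 9 for 16, against 23.2%. The transcription factor Cebpb, which is induced in inflammation, was lower at log2 -1.31 to -1.01.

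Monomer differed little from PBS in members. At 1.5-fold or more, 9 genes were higher (0.246% of 3656 genes with at least 50 CPM) and 6 lower (0.164%), with a median absolute log2 ratio of 0.08, and with thinned cells 12 were higher and 24 lower. The higher genes were led by Apoe, at 567 CPM in monomer and 257 in PBS (log2 ratio 1.14, counting interval 1.08 to 1.21), and by the chemokine gene Ccl6 (log2 0.98). Lyz2, the lysozyme gene, had log2 0.75. Of the DAM genes outside the limits, 3 of 15 were at least 1.5-fold higher and 0 lower, with a median of log2 0.16. Ccr6, a chemokine receptor gene, had 97.7, 7.89, 4.53 and 27.7 CPM over the libraries and was lower in monomer by the widest margin (log2 -3.63). Also lower were the heat shock genes Hspa1b (log2 -0.86) and Hspa1a (-0.80), the prostaglandin-degrading enzyme gene Hpgd (-0.77), and Adgrl2 (-0.74). None of the 30 signature genes passed 1.5-fold in either direction, and their median was log2 0.01.

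PFF + VH against monomer gave 30 genes higher (0.836% of 3587) and 13 lower (0.362%), and with cells thinned to 1000 UMIs 64 higher and 55 lower. Ccl12, a chemokine gene that attracts monocytes, had 68.6, 61.9, 145 and 65.2 CPM in PBS, monomer, PFF + VH and PFF + AZD1480, and the log2 ratio of PFF + VH to monomer was 1.23 (1.08 to 1.39). The other 3 libraries thus lay together, at 61.9 to 68.6 CPM. Ier3, a stress response gene, had log2 1.12 and Slamf9 0.98, and both mt-Nd3 (1.19) and mt-Nd4l (1.16) are mitochondrially encoded. Lower were Gatm, which makes the creatine precursor (log2 -0.81), the cyclin gene Ccnd3 (-0.70), Gm47283, Gm10260 and 5830444B04Rik. The last had 44.3, 84.7, 52.3 and 34.9 CPM over the libraries, so that monomer was the highest and PFF + VH lay above PBS. Inflammatory genes outside the limits were at least 1.5-fold higher in 3 of 13, DAM genes in 1 of 16, and the median of the 30 signature genes was log2 -0.14, beside -0.08 over all genes. The shallow depth of PFF + VH and its higher mitochondrial share move with these ratios, and their part in them was not tested.

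PFF + AZD1480 against the same monomer library gave 24 genes higher (0.663% of 3619) and 16 lower (0.442%), and with thinned cells 46 higher and 62 lower. Anxa3, an annexin gene, had 258, 181, 217 and 462 CPM over the libraries (log2 ratio 1.35), and PFF + AZD1480 was the highest. Adamts1 (log2 1.11), the chemokine receptor-like gene Ccrl2 (1.06), the calcium channel gene Cacna1a (1.03) and Arhgap31 (0.97) were also higher. Slfn8, of the interferon-responsive Schlafen family, had 222, 297, 266 and 48.3 CPM (log2 ratio -2.62, -2.82 to -2.43), and Gatm 415, 403, 230.4 and 152 CPM (-1.40). Both PFF ratios to monomer share the monomer library. Gatm and 5830444B04Rik were among the leading lower genes in both, and Ccl6, at 139, 274, 340.5 and 105 CPM, was at least 1.5-fold below monomer with AZD1480 but not with VH.

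The hashtags allowed a test of AZD1480 against VH within PFF mice. Summed counts of members were compared for 8224 genes with edgeR's quasi-likelihood test. After AZD1480, 154 genes were higher (1.87%) and 372 lower (4.52%), and for 371 of these 526 genes the hashtags of the groups did not overlap. The same hashtag values made the calls, so a lack of overlap is a description and not separate support. The count without overlap over all genes tested is not given. The median of all genes was log2 0.01. Fold changes are on edgeR's TMM scale, while CPM are per total of a hashtag. The hashtag sums held 361501 to 1594508 UMIs. Because each treatment is 1 library, a difference between hashtags of the PFF libraries can also be one between the libraries. The median depth of hashtagged members, 2549 UMIs with VH and 6052 with AZD1480, moves with every result of this comparison.

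**Figure D3:**
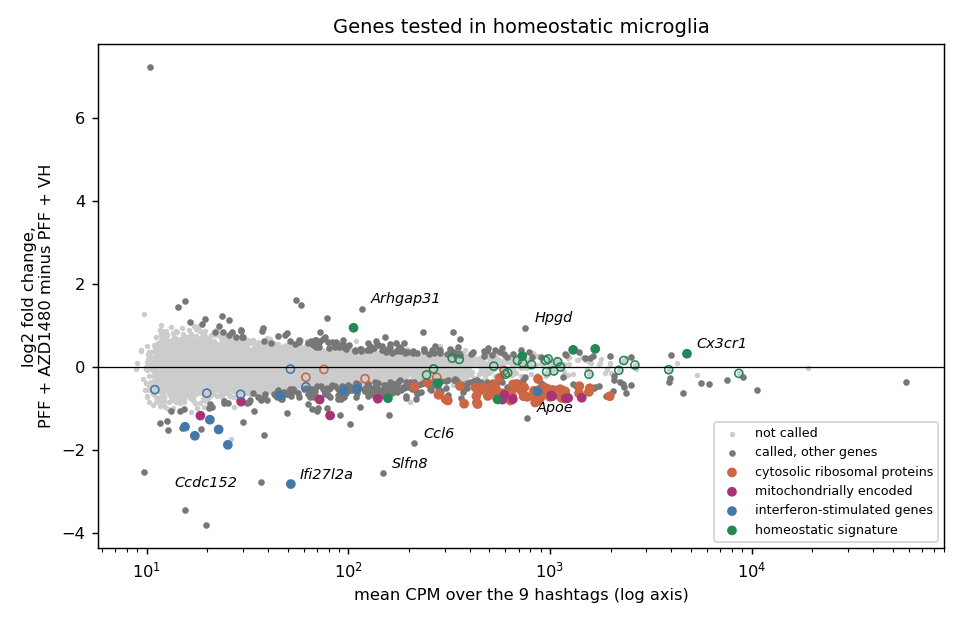
Log2 fold change of PFF + AZD1480 against PFF + VH in members, by mean CPM over the 9 hashtags on a log axis. Genes tested are drawn, without those of the limits, and filled symbols mark genes past the threshold. Ribosomal protein and mitochondrially encoded genes lie below 0 as a band, and Ifi27l2a at -2.82, Ccdc152 at -2.76 and Slfn8 at -2.56 lie far below it.

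Interferon-stimulated genes, which cells switch on through JAK kinases, were lower with AZD1480. Of 30 genes in the list, 15 passed the filter on low counts and all 15 had a negative fold change. Of these 15, with a median of log2 -0.65, 10 passed the test, against 4.52% of all genes called lower. With a hashtag left out 6 to 12 passed, the fewest without hashtag 1 of PFF + VH (6 of 13). By DESeq2 4 of 15 passed, with MULTIseqDemux hashtag calls 4 of 9 and with thinned cells 2 of 5. With low counts left unfiltered, 15 of 29 passed and all 29 had a negative fold change. A gene can enter the filtered fit on its VH hashtags alone, so its count of negative signs can depend on the filter. Ifi27l2a, a small protein of the interferon response, had 121, 85.6, 119 and 60.9 CPM in hashtags 1 to 4 of PFF + VH and 12.7, 8.60, 11.05, 12.5 and 35.96 CPM in hashtags 1 to 5 of PFF + AZD1480. Every VH hashtag was above every AZD1480 hashtag, with a log2 fold change of -2.82 ± 0.26 (SE, edgeR adjusted p = 1.06e-08). The PBS and monomer libraries, at 16.7 and 14.1 CPM, lay within the AZD1480 range. Isg15, a ubiquitin-like modifier, had 28.4, 29.2, 27.8 and 23.4 CPM with VH and 12.7, 6.14, 13.8, 6.27 and 8.30 CPM with AZD1480, again without overlap (log2 -1.65 ± 0.29 SE, edgeR adjusted p = 1.91e-04). Xaf1, which favors apoptosis, changed by log2 -1.27 (adjusted p = 0.00429), Rtp4 by log2 -1.44 (adjusted p = 0.00609) and Ly6e by log2 -0.58 (adjusted p = 1.35e-06), all without overlap. Ifitm3, a restriction factor of viral entry, changed by log2 -1.87 (adjusted p = 5.10e-04) and the tetherin gene Bst2 by log2 -0.52 (adjusted p = 0.0168), with overlapping hashtags. Bst2 lost its call in 4 of 20 alternative settings and Trim30a (log2 -0.56, adjusted p = 0.0336) in 10 of 20.

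The summed list stood at 1349 (PBS), 1376 (monomer), 1788 (PFF + VH) and 1176 CPM (PFF + AZD1480). Hashtags ran from 1647 to 2153 CPM with VH and from 1111 to 1401 CPM with AZD1480, so that the groups did not overlap and both controls lay within the AZD1480 range.

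The promoters of these genes were searched for the interferon-stimulated response element, here GAAA repeated after any 2 bases, on both strands of the RefSeq window from 250 bases before to 50 after the gene's start. Of the 10 interferon-stimulated genes called lower, 6 had such a window and 4 of them held the motif. It was also held by 2 of 4 list genes that were tested and not called. Of the 10 largest falls, 9 had a window and 1 of them held the motif. It was found in 27 of 288 genes called lower (9.38%), in 2 of 116 called higher (1.72%), in 250 of 6564 tested (3.81%) and in 3.44% of all 32851 windows. The motif TTCNNNGAA, which dimers of STAT factors bind, was found in 7.29% of genes called lower, 9.48% of those called higher and 8.12% of those tested. Stretches around the response element of 3 called list members and of Slfn8 are printed from GRCm38.p6 because their genes were called lower with AZD1480, in lower case with the motif, on either strand, in capitals. They are read 5′ to 3′ on the minus strand at chr4:156200850-156200921, chr7:104465195-104465254, chr8:71537562-71537627 and chr11:83020824-83020883.
Isg15: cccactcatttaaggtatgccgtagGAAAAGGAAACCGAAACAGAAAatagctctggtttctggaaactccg
Trim30a: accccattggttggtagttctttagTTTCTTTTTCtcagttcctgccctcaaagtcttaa
Bst2: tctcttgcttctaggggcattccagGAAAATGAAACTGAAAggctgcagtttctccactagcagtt
Slfn8: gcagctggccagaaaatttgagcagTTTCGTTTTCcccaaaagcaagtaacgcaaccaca
In Isg15 the capitals join 3 overlapping matches and in Bst2 2, while Trim30a and Slfn8 hold 1 match each, read on the other strand. A match describes letters and not a bound site.

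Slfn8, with a matching stretch above, had 382, 242, 237 and 215 CPM with VH and 45.5, 45.5, 49.7, 40.8 and 82.99 CPM with AZD1480. The groups were far apart, with a log2 fold change of -2.56 ± 0.17 (SE, edgeR adjusted p = 6.17e-12). PBS, at 222 CPM, and monomer, at 297 CPM, were within the VH range, unlike for Ifi27l2a. Slfn2, which keeps T cells quiescent and is a list member, had 36.2 ± 7.56 CPM (SD, n = 4) against 12.1 ± 6.82 CPM (SD, n = 5), at log2 -1.50 (adjusted p = 6.92e-04).

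Among JAK/STAT components, 22 of 30 were tested. Socs3, the feedback inhibitor that STAT3 induces, had 155, 190.1, 184 and 203 CPM with VH and 146, 157, 127, 137 and 88.5 CPM with AZD1480, with a log2 fold change of -0.52 ± 0.12 (SE, edgeR adjusted p = 0.00555). Its groups overlapped, as hashtag 1 of PFF + VH lay within the AZD1480 range. Ifnar2, a chain of the type I interferon receptor, was 439 ± 35.4 CPM (SD, n = 4) against 337 ± 19.7 CPM (SD, n = 5), without overlap, at log2 -0.47 (adjusted p = 2.42e-04). Stat3 (log2 -0.37, adjusted p = 0.0496) was also lower, with overlap, and lost the call in 14 of 20 alternative settings. Higher were Ifngr1, the interferon-γ receptor chain (log2 0.26, adjusted p = 0.0434), and Il6ra, the IL-6 receptor (log2 0.28, adjusted p = 0.0479), whose calls were lost in 9 and 15 of 20. Jak1 had a log2 fold change of 0.02 (adjusted p = 0.955, 95% interval -0.20 to 0.23) and Jak2 0.09 (0.850, -0.35 to 0.54). The list as a whole had a median of log2 0.02.

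Antigen presentation genes of MHC class I had a median of log2 -0.43. Of 14 tested, 6 were lower with AZD1480, against 4.52% of all genes, and 0 higher. H2-K1, a classical heavy chain, had 448, 501, 432 and 426 CPM with VH and 262, 332, 315, 246 and 309.8 CPM with AZD1480. Its groups did not overlap (log2 -0.73 ± 0.10 SE, edgeR adjusted p = 1.80e-06), and PBS and monomer lay at 298 and 340.4 CPM. B2m, the shared light chain, had log2 -0.46 (adjusted p = 1.51e-05), H2-D1 log2 -0.67 (adjusted p = 1.13e-04) and the nonclassical H2-T23 log2 -0.68 (adjusted p = 4.73e-05). The immunoproteasome subunits Psmb9 (log2 -0.70, adjusted p = 0.00322) and Psmb8 (log2 -0.50, adjusted p = 0.00434) were the other called members, and Psmb8 lost its call in 2 of 20 alternative settings. MHC class II genes were scarce in members, with 5 of 8 tested and a summed level of 445 to 596 CPM. The peptide loading genes H2-DMb1 (log2 -0.99, adjusted p = 1.12e-04) and H2-Oa (log2 -1.31, adjusted p = 2.25e-04) were lower, and Cd74, the invariant chain, had log2 -0.27 (adjusted p = 0.381).

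DAM genes outside the limits were lower in 10 of 17 tested, against 4.52% of all genes, and higher in 0. Their median was log2 -0.30. The lists share some genes, as B2m also counts under MHC class I and Tyrobp and Trem2 under lysosome and phagocytosis. Apoe had 1190.5, 1213, 1105 and 960.1 CPM with VH and 623, 414, 602, 551 and 302 CPM with AZD1480. All AZD1480 hashtags were below all VH hashtags (log2 -1.22 ± 0.12 SE, edgeR adjusted p = 1.47e-08), and the libraries followed the order PBS 257, monomer 567, PFF + AZD1480 587 and PFF + VH 1107 CPM. Ccl6 had 399.7, 516, 269 and 219.7 CPM with VH and 91.8, 104, 85.6, 108 and 116 CPM with AZD1480 (log2 -1.83 ± 0.17 SE, edgeR adjusted p = 1.20e-08). It did not overlap either, and its VH hashtags spread over more than their AZD1480 counterparts. Tyrobp, the signaling adaptor of Trem2, changed by log2 -0.58 (adjusted p = 1.61e-06) and Fth1, the ferritin heavy chain, by log2 -0.43 (adjusted p = 4.44e-05), both without overlap. Lyz2 (log2 -0.62, adjusted p = 6.72e-04), Ctsl (log2 -0.51, adjusted p = 3.73e-05), Cd63 (log2 -0.36, adjusted p = 0.0240) and Timp2 (log2 -0.30, adjusted p = 0.0364) were lower as well, with the calls of Cd63 and Timp2 lost in 7 and 12 of 20 alternative settings. Trem2 itself, at log2 -0.21 (adjusted p = 0.0455), overlapped and lost the call in 13 of 20 alternative settings. Spp1, which the limits used, had 53.0, 50.1, 46.3 and 62.4 CPM with VH and 9.09, 18.4, 22.1, 16.3 and 33.2 CPM with AZD1480, given without a test.

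Complement and Fc receptor genes were lower in 6 of 13 tested, against 4.52% of all genes, with a median of log2 -0.26. With a hashtag left out 3 to 6 were called lower, the fewest without hashtag 3 of PFF + VH. C1qb, a chain of the C1q recognition complex, had 7248, 6525, 7312 and 6450.1 CPM with VH and 4976, 5484, 6061, 5580.4 and 5765 CPM with AZD1480 (log2 -0.39 ± 0.06 SE, edgeR adjusted p = 3.76e-05). The groups were close but did not overlap. C1qa (log2 -0.31, adjusted p = 0.00110) and C1qc (log2 -0.26, adjusted p = 0.0112) followed with overlap, and Fcer1g, the Fc receptor γ chain, had log2 -0.50 (adjusted p = 3.68e-06) without it. The anaphylatoxin receptors C5ar1 (log2 -0.68, adjusted p = 0.0345) and C5ar2 (log2 -1.64, adjusted p = 0.00355) were lower too. C1qc lost its call in 2 of 20 alternative settings and C5ar1 in 9. In C5ar2 the AZD1480 hashtags ranged from 2.51 to 42.7 CPM. Lysosomal and phagocytosis genes were lower in 8 of 19 and higher in 1, against 4.52% and 1.87% of all genes. The higher gene was the efferocytosis receptor gene Mertk, which is also one of the signature genes. Ctss, cathepsin S, had 6234 ± 58.6 CPM (SD, n = 4) against 5125 ± 384 CPM (SD, n = 5), at log2 -0.37 (adjusted p = 6.40e-05), and Cst3, its secreted inhibitor, log2 -0.35 (adjusted p = 1.96e-04).

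Homeostatic signature genes outside the limits moved both ways, 5 higher and 3 lower of 30 tested, with a median of log2 0.04. Over all genes tested, 1.87% were higher and 4.52% lower. Cx3cr1, the receptor for neuronal fractalkine, had 4055, 3929, 4110.0 and 4038 CPM with VH and 5217, 5371, 5514, 5151 and 5591 CPM with AZD1480. The groups did not overlap (log2 0.32 ± 0.06 SE, edgeR adjusted p = 1.81e-04), and PBS and monomer, at 5058 and 5011 CPM, were just under the lowest AZD1480 hashtag. Selplg had 1322, 1378, 1353 and 1339 CPM with VH and 2103, 1855, 2160.2, 2029 and 1541 CPM with AZD1480 (log2 0.44 ± 0.08 SE, edgeR adjusted p = 2.13e-04), with monomer between the groups at 1453 CPM and PBS within the AZD1480 range at 1654 CPM. Mertk had 1039, 1126, 964 and 1107 CPM with VH and 1441, 1357, 1439, 1786 and 1463 CPM with AZD1480 (log2 0.42 ± 0.08 SE, edgeR adjusted p = 4.55e-04). No VH hashtag of either gene reached the lowest AZD1480 hashtag. The transporter gene Slco2b1 (log2 0.27, adjusted p = 0.0252) and Upk1b (log2 0.95, adjusted p = 8.93e-05) were also higher, and Slco2b1 lost its call in 5 of 20 alternative settings.

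Lower signature genes included Cd34 (log2 -0.75, adjusted p = 6.09e-05) and Ecscr (log2 -0.39, adjusted p = 0.00774), whose call was lost in 2 of 20 alternative settings. Csf1r, the receptor on which microglial survival depends, had log2 0.05 (adjusted p = 0.704, 95% interval -0.09 to 0.20). P2ry12 and Tmem119, which chose the cells, had 4090 to 4392 and 1193 to 1382 CPM in VH hashtags and 3923 to 4061 and 1361 to 1518 CPM in AZD1480 hashtags.

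Transcription factors of microglia had a median of log2 0.19. Of 18 tested, 3 were higher, against 1.87% of all genes, and 0 lower. The count was 1 without hashtag 1 or 4 of PFF + VH or hashtag 2 of PFF + AZD1480. Ikzf1, which governs hematopoietic lineages, had 614, 530.5, 538 and 631 CPM with VH and 781, 860.3, 831, 795 and 888 CPM with AZD1480 (log2 0.42 ± 0.08 SE, edgeR adjusted p = 2.85e-04). Its groups did not overlap. Mef2c (log2 0.23, adjusted p = 0.0425) and Mitf (log2 0.34, adjusted p = 0.0173) passed the test but lost the call in 10 and 5 of 20 alternative settings. Summed over the 20 factors of the list, VH hashtags had 8018 to 8525 CPM, AZD1480 hashtags 9856 to 10006 CPM, PBS 9499 CPM and monomer 9155 CPM. TGF-β axis genes had 0 of 12 past the threshold, with Tgfbr1, a receptor chain, at log2 0.16 (adjusted p = 0.163).

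Most ribosomal protein genes and all mitochondrially encoded genes tested were lower with AZD1480, and a smaller part of the nuclear-encoded respiratory chain genes. Over all genes tested, 4.52% were lower. Of 77 ribosomal protein genes, 72 were lower and 0 higher (median log2 -0.58), of 13 mitochondrially encoded genes all 13 were lower (-0.76), and of 83 nuclear-encoded respiratory chain genes 33 were lower and 0 higher (-0.42), with 6 at a positive fold change. Rps29, of the small subunit, had 2395, 2552, 2542 and 2313 CPM with VH and 1617, 1706, 1450.3, 1523 and 1709.5 CPM with AZD1480 (log2 -0.70 ± 0.07 SE, edgeR adjusted p = 1.39e-08). mt-Co1, a subunit of complex IV, had 1401, 1637, 1583 and 1411 CPM with VH and 971, 998, 948, 893 and 927 CPM with AZD1480 (log2 -0.76 ± 0.07 SE, edgeR adjusted p = 1.28e-08). Neither gene overlapped between the groups. Summed ribosomal genes stood at 51070.5, 54366, 67062 and 49690.2 CPM in PBS, monomer, PFF + VH and PFF + AZD1480, and mitochondrial ones at 6681, 7478, 9909 and 6702 CPM. The PFF + VH library was thus the highest of the 4 in both, and PFF + AZD1480 lay with the controls. Gm42418 and Cmss1, which overlap other genes, were lower at log2 -0.55 (adjusted p = 9.26e-08) and log2 -0.48 (adjusted p = 1.66e-05). Depth per cell moves with these lists too, and its part in them was not tested. With members' counts thinned to 1000 UMIs, the number of genes tested dropped to 3207 and 264 were called, 87.1% of which were among the 526. Ribosomal genes were then lower in 67 of 77 (median log2 -0.55), mitochondrially encoded genes in 9 of 11 (-0.60) and nuclear-encoded respiratory chain genes in 8 of 63 (-0.43).

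**Figure D4:**
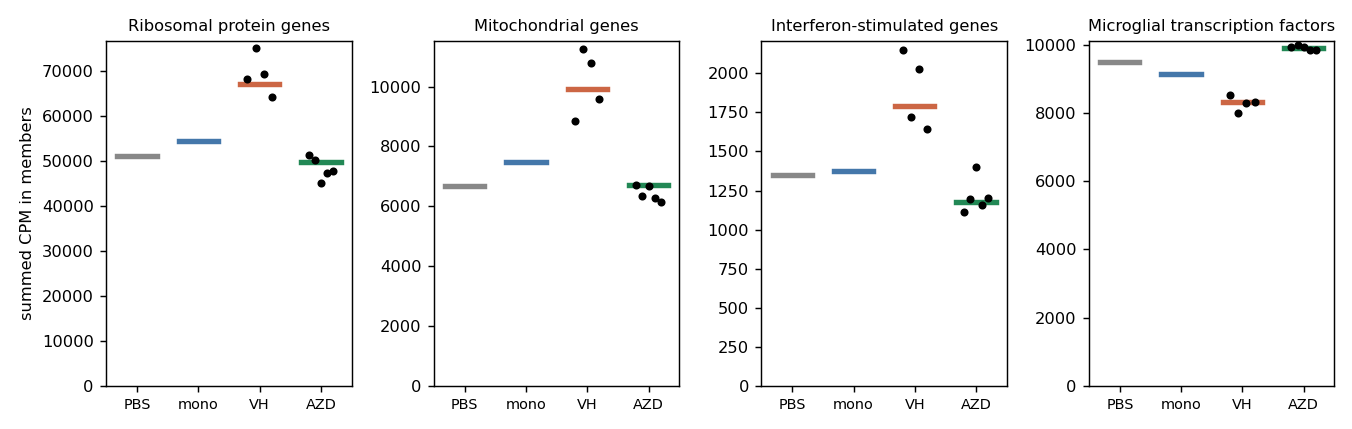
Summed CPM of 4 gene lists in members, with a line for each library (PBS, monomer, PFF + VH and PFF + AZD1480) and a point for each hashtag. Ribosomal, mitochondrial and interferon-stimulated sums are highest in PFF + VH, while the microglial transcription factors are lowest there (8018 to 8525 CPM against 9856 to 10006 CPM with AZD1480).

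Of inflammatory genes outside the limits 1 of 17 was called, lower, and of immediate early and stress genes 2 of 19, higher. Over all genes 4.52% were lower and 1.87% higher, so the inflammatory count was near the share of all genes. The immediate early and stress count was above it, but rests on 2 calls that were lost without hashtag 4 of PFF + AZD1480. Ccl12 was the only inflammatory gene called of 17, with 143, 182, 145 and 134 CPM with VH and 54.5, 54.1, 55.2, 58.95 and 94.1 CPM with AZD1480 (log2 -1.38 ± 0.14 SE, edgeR adjusted p = 3.78e-08). The groups were apart, and PBS and monomer lay with AZD1480 at 68.6 and 61.9 CPM. The abundant Ccl4 had 1878 ± 201 CPM (SD, n = 4) and 1931 ± 372 CPM (SD, n = 5), with log2 -0.04 (adjusted p = 0.868, 95% interval -0.27 to 0.19). Cd83 had log2 0.23 (adjusted p = 0.167). Hspa1a (log2 1.18, adjusted p = 0.0244) and Hspa1b (log2 1.61, adjusted p = 0.0169), near-identical heat shock genes that share reads, were higher of 19 immediate early and stress genes. Hashtag 4 of PFF + AZD1480, at 234 and 191 CPM, carried both, and without it neither was called (log2 0.43 and 0.58, edgeR adjusted p = 0.395 and 0.379). Both calls were also lost without hashtag 1 or 2 of PFF + VH, that of Hspa1a without hashtag 3 and that of Hspa1b without hashtag 4. Cholesterol synthesis (7 tested) and cell cycle genes (5 tested) had 0 calls.

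Of the 10 largest rises with AZD1480 among calls without overlap and with a mean of at least 20 CPM, all but Upk1b were genes outside the lists. Arhgap31, an inhibitor of Rac and Cdc42 GTPases, had 67.9, 35.5, 64.9 and 58.1 CPM with VH and 172, 135, 146, 170.0 and 199 CPM with AZD1480 (log2 1.41 ± 0.14 SE, edgeR adjusted p = 3.16e-08). Its lowest AZD1480 hashtag was above the highest of VH, and PBS and monomer lay between the groups at 119 and 82.2 CPM. Hpgd, which degrades prostaglandins, had 437, 349, 564 and 523 CPM with VH and 800.1, 1222, 1077, 707 and 1109 CPM with AZD1480 (log2 0.95 ± 0.13 SE, edgeR adjusted p = 2.29e-06). It did not overlap, and PBS (804 CPM) lay with AZD1480 and monomer (473 CPM) with VH. Ccnd3 (log2 0.85, adjusted p = 1.51e-05), which overlaps Bysl, Gclc, the rate-limiting enzyme of glutathione synthesis (log2 0.86, adjusted p = 0.00117), and the kinase gene Dstyk (log2 0.95, adjusted p = 0.00185) were higher without overlap, with the calls of Gclc and Dstyk lost in 2 of 20 and 1 of 18 alternative settings. Ccl6, Slfn2, H2-Oa, Dstyk and N4bp2, like Ccnd3, overlap another annotated gene on the opposite strand. Letm2 overlaps Gm45570 on its own strand, so that their reads may be shared, and D830025C05Rik on the other. Nab1, N4bp2, Adarb1 and Letm2, at log2 0.84 to 0.91, had group means of 14.9 to 38.0 CPM and lost the call in 5 to 9 of 17 or 18 alternative settings. Among the largest falls, Ccdc152 had 82.7, 58.5, 74.2 and 68.02 CPM with VH and 11.8, 9.83, 8.29, 13.2 and 5.53 CPM with AZD1480 (log2 -2.76 ± 0.21 SE, edgeR adjusted p = 1.34e-10). The groups did not overlap. It lies over Selenop, the selenoprotein P gene, on the opposite strand, and Selenop had a log2 fold change of -0.16 (adjusted p = 0.371).

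**Figure D5:**
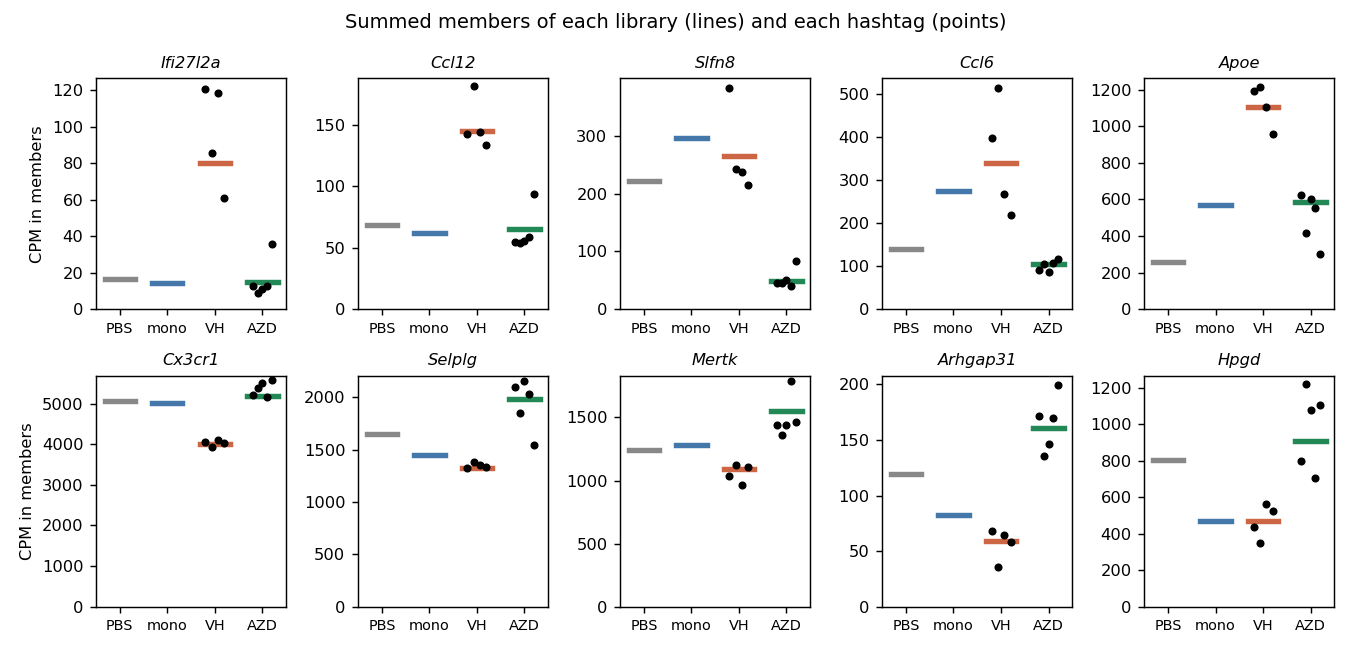
CPM of 10 named genes in members, with a line for each library (PBS, monomer, PFF + VH, PFF + AZD1480) and a point for each hashtag. For all 10 genes the hashtags of the PFF groups do not overlap, and the controls lie near AZD1480 for Ifi27l2a, Ccl12 and Cx3cr1 but near VH for Slfn8.

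Whether these responses belonged to members in particular was tested by the interaction of state and treatment. Against marker-positive cells over a limit, 1 of 6221 genes passed (0.0161%), Arhgap15, a Rac GTPase inhibitor. In members it had 71.6 to 82.2 CPM with VH and 58.3 to 196 CPM with AZD1480, and in the compared cells 61.1 to 177 CPM and 26.6 to 60.8 CPM. The difference of fold changes was log2 1.67 (edgeR adjusted p = 0.0272), with ranges that overlap. No gene passed in 6 of the 9 fits that left out a hashtag, nor by DESeq2. An unadjusted p under 0.05 was reached by 289 genes with edgeR and 168 with DESeq2. Against marker-low cells 2 of 10738 genes passed. On simulated counts this test recovered 39.5% of genes whose response differed 2-fold between the states. The simulation used the spread of member sums for both states. Cells over a limit numbered 7 to 79 per hashtag, so the true recovery may be lower. In marker-low cells tested alone, 472 of the 526 genes called in members were also called, and 523 of 526 kept their sign. Interferon-stimulated genes were lower there in 26 of 28 and MHC class I genes in 14 of 16, beside 1315 of all 11540 genes. The responses listed above are therefore not shown to be particular to members.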

How the data were processed

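Single-cell RNA-Seq was analysed from 4 libraries of CD45+ midbrain cells (PBS, monomer, PFF + VH, PFF + AZD1480). The authors deposited filtered matrices of whole-number UMI counts per gene and cell, made with Cell Ranger 7.0.1 per the file headers on mm10, with hashtag counts in both PFF libraries. The authors' cell annotation was not used here.

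Members were chosen by the UMI limits given above, and the members and gene lists were chosen with earlier results of these data known. Hashtags were called with 99% quantile cutoffs after centred log-ratio scaling (Seurat 5.3.0) in cells of 500 or more UMIs. No doublet caller was run. Cells with more than 1 hashtag and those over 15000 UMIs were left out of hashtag sums. Counts of members were summed per hashtag and tested with edgeR 4.0.16 (TMM, filterByExpr, quasi-likelihood, Benjamini-Hochberg, 0.05). No source says which pool of animals a hashtag marks, so p-values measure the spread between hashtags. PBS and monomer gave ratios with counting intervals only. On simulated counts for the comparison of AZD1480 with VH, 83% of genes changed 2-fold and 43% of those changed 1.5-fold were recovered.

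Named genes were the 10 largest falls and 10 largest rises among calls without overlap between groups and with a mean of at least 20 CPM, the most abundant called members of each list, up to 5 genes in each direction for a library ratio at 50 CPM or more, the 15 genes with the widest spread, and up to 10 in each direction against other marker-positive cells. Other list members were named for their role after their values were seen. Some genes that these rules name are not reported here. Alternatives were DESeq2 1.42.0, scaling by RLE, leaving low counts unfiltered, other hashtag calls, thinned cells, other marker limits, and each hashtag left out. Promoter windows and sites came from RefSeq tables of GRCm38.p6. R 4.3.3 and Python 3.11.15 were used.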

Additional observations from a re-analysis of the deposited data

Results flagged for a closer look

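In 162 groups of 4 or 5 hashtags tested, the highest or lowest hashtag stood apart from the others in 12, where chance gives about 1 in 20. Hashtag 5 of PFF + AZD1480, with 66 members, was the highest for Ifi27l2a (36.0 CPM), Slfn8 (83.0 CPM), Ccl12 (94.1 CPM) and Gclc (122 CPM) and the lowest for H2-Oa (5.53 CPM). Hashtag 4 of PFF + AZD1480 was the highest for Mertk, at 1785.5 CPM, and the lowest for Ctss, at 4460.3 CPM. Hashtag 2 of PFF + AZD1480 was the highest for Bst2 (123 CPM) and for the share of marker-positive cells over the inflammatory limit (4.62%). With VH, hashtag 1 was the highest for Slfn8 (382 CPM) and the lowest for Il6ra (271 CPM), and hashtag 3 the lowest for Slco2b1 (559.9 CPM). The response of Arhgap15 to AZD1480 differed between members and other marker-positive cells by log2 1.67.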

How the results depend on the processing

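Leaving out 1 hashtag at a time, the difference in the share of members between AZD1480 and VH ran from -0.398 to 1.16 points of filtered cells and from -1.54 to 2.25 points of marker-positive cells, and that of cells over the immediate early limit from -1.87 to 1.90 points. The inflammatory difference ran from 0.448 (without hashtag 2 of PFF + AZD1480) to 1.22 points (without hashtag 3 of PFF + VH; exact permutation test, adjusted p = 0.179) and was 1.14 points with hashtag counts centred within cells (exact permutation test, p = 0.0159, adjusted p = 0.0794). With MULTIseqDemux hashtag calls the first 3 differences were 2.36, 5.63 and -5.29 points. They rest on the 19.8% of PFF + VH cells and 79.9% of PFF + AZD1480 cells to which it gave a single hashtag. Signs also changed at a marker limit of 1% (-0.0291 points of filtered cells), with cells of 2000 UMIs or more (-0.609 points for members of marker-positive cells, 0.785 for the immediate early share) and with thinned cells (0.564 for the immediate early share).

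Genes called higher with AZD1480 numbered 88 to 151 with a hashtag left out, with the lowest count without hashtag 1 of PFF + VH or hashtag 4 of PFF + AZD1480 (88 each), and 398 genes were called in both directions together without hashtag 2 of PFF + VH. Genes called lower numbered 297 to 369. MULTIseqDemux hashtag calls gave 90 higher, cells of 2000 UMIs or more 100, thinned cells 73 higher and 191 lower, and a marker limit of 0.25% 780 higher and 1087 lower. DESeq2 gave 117 higher and 287 lower, and RLE scaling 158 and 354. Of the 526 calls, 399 were shared with DESeq2, 285 with MULTIseqDemux and 230 with thinned cells, where 439 of them were tested and 438 kept their sign.

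With the hashtag number as a replicate block, 186 genes were higher and 406 lower, against 151 and 369 in the same hashtags 1 to 4 without it. Deviations of hashtags of the same number had correlations of -0.0045 to 0.0147, and those of different numbers -0.0307 to 0.0333. Values this small do not show whether hashtags of the same number share more than a number. Il6ra, Trim30a, C5ar1 and Timp2 were not called under the block (edgeR adjusted p = 0.0676 to 0.0792), nor in hashtags 1 to 4 without it (0.0526 to 0.0886).

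The count of genes with a different response in members and other marker-positive cells was 0 with hashtag counts centred within cells, with MULTIseqDemux, thinned cells, cells of 2000 UMIs or more and DESeq2, 2 against marker-low cells, and 0 to 2 with a hashtag left out (0 without hashtag 1 or 2 of PFF + VH or hashtag 1, 2, 3 or 5 of PFF + AZD1480, and 2 without hashtag 3 of PFF + VH).

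Counts of genes past 1.5-fold between libraries changed with the marker limit, the lowest CPM allowed and the thinning of cells. At a marker limit of 1%, which leaves few cells, monomer against PBS gave 1427 higher and 1158 lower, PFF + VH against monomer 991 and 1305, and PFF + AZD1480 against monomer 1124 and 1489. Among genes of at least 200 CPM the counts were 3 and 1, 14 and 3, and 6 and 6. With thinned cells they were 24 lower for monomer against PBS, 64 and 55 for PFF + VH, and 46 and 62 for PFF + AZD1480. At a marker limit of 0.25%, 5 genes were higher in monomer than in PBS and 8 lower with VH than in monomer. Genes with a variance of 1.2 times the mean numbered 329 at 2000 UMIs. Genes 1.5-fold higher in members than in other marker-positive cells numbered 7 in thinned cells.

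Of the named genes' values under these alternatives, 1373 kept direction and side of the threshold, 141 lost the call, 3 gained it and 9 changed sign. Those that changed sign were not called to begin with, namely Ccl4 (log2 0.0278 at 2000 UMIs or more, and -0.122 to 0.0458 with a hashtag left out), Srebf2 (0.0519 at a marker limit of 0.25%), Hmgb2 (-0.274 to 0.0412 with a hashtag left out) and Pcna (0.00103 at 2000 UMIs or more, 0.00196 at a marker limit of 0.25%, and -0.149 to 0.00220 with a hashtag left out). The cause was not tested in any of these cases. The gene tests could not be fitted at a marker limit of 1%, as some hashtags held no such cells.

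Members of PFF + VH had fewer UMIs per cell than those of the other libraries. The smallest hashtag sums were those of hashtags 3 and 5 of PFF + AZD1480, with 361999 and 361501 UMIs from 58 and 66 members, against 478803 to 1411300 UMIs with VH. With 1 library per condition, treatment and library cannot be told apart.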

Other observations

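Of the 4 B cell markers tested, the immunoglobulin light chain gene Igkc was called higher with AZD1480 (log2 1.44, adjusted p = 0.0393), and of the 3 border macrophage and monocyte markers tested Ms4a6c was called lower (log2 -0.80, adjusted p = 0.0250). Of 20 alternative settings, Igkc was called in 7, tested and not called in 5, and under the filter on low counts in 8. With a hashtag left out it was called in 3 of 9 fits, those without hashtag 2 or 4 of PFF + VH or hashtag 3 of PFF + AZD1480. Ms4a6c was called in 12 of 20 settings and in 4 of 9 fits with a hashtag left out, not without hashtag 1, 2 or 3 of PFF + VH or hashtag 1 or 4 of PFF + AZD1480. The lists for T and NK cells, neutrophils, neurons, oligodendrocytes, astrocytes and endothelial or red cells had 0 calls.

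Of all 8224 genes tested, 4.52% were called lower and 1.87% higher with AZD1480. A stretch of chromosome 11 that holds the Ccl and Slfn gene clusters was chosen after its values were seen, so its count is a description. In it 6 of 21 tested genes were called and all 6 were lower with AZD1480. These were the chemokine genes Ccl6, Ccl12 and Ccl9 (log2 -0.41, adjusted p = 0.0316) and the Schlafen genes Slfn2, Slfn8 and Slfn9 (log2 -3.81, adjusted p = 2.23e-08), while Ccl2, Ccl3 and Ccl4 in the same stretch were not called. Ccl9 lost its call in 8 of 20 alternative settings. Slfn9 had 34.5, 50.3, 39.3 and 2.68 CPM in PBS, monomer, PFF + VH and PFF + AZD1480.

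Some genes, also chosen after their values were seen, differed widely between libraries or hashtags. Gnb4 had 62 UMIs in PBS members and 0 in those of monomer and of PFF + VH. It had 123 with AZD1480, which is at least 39.2-fold higher than the floor of 3 counts over the members of PFF + VH. Its AZD1480 hashtags had 26.4, 20.9, 13.8, 32.6 and 0 CPM. Ccr1 had 14.00, 17.9, 32.4 and 2.89 CPM over the libraries and Ulk4 8.05, 9.66, 15.8 and 3.71 CPM. Ccr6 stood at 227 CPM in hashtag 5 of PFF + AZD1480 and at 5.45 to 9.41 CPM in the other 4. Gm47283 had 157 CPM in hashtag 4 of PFF + AZD1480 and 44.3 to 71.8 CPM in the other 4.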
